A study of Mus musculus with 2 samples.

Results

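Mir744, Mir149, Mir652, Mir330, Mir324 and Mir151 are 6 of the 2202 microRNA genes counted in the left cerebral cortex of 25-day-old female mice. They were chosen by their high counts in these same libraries, as abundant genes outside the repeated microRNA families, so their levels are given as a description without a test. Each row was found by its GENCODE M21 gene name, and all 6 passed the minimum of 10 counts used for the comparison of libraries. The animals were B6CASTF1/J, hybrid offspring of C57BL/6J and the wild-derived strain CAST/EiJ, with no treatment stated. Small RNA below 30 nt was sequenced from total RNA of 1 group with 2 libraries, numbered by the labels as biological replicates. The labels number separate animals but list a shared donor record, so whether they are separate animals rests on the labels. Reads on the annotated strand of microRNA genes totalled 3017058 (replicate 1) and 3209361 (replicate 2).

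MicroRNAs regulate messenger RNAs after transcription. The nuclease Drosha cuts a hairpin out of a primary transcript, Dicer removes the loop, and an Argonaute protein keeps an arm whose seed, bases 2 to 8 from the 5′ end, pairs with target transcripts. Many microRNA hairpins lie in introns of protein-coding genes and can be cut from the host transcript. Among these genes, miR-324-5p is known in mouse hippocampus for repressing the potassium channel Kcnd2, and the precursor of miR-151 is a known substrate of adenosine-to-inosine editing in brain. A count in these tables joins both arms of a hairpin, so the values below belong to genes and do not say which arm was present.

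The mature arms are shown first because they are the molecules that the counts stand for. RefSeq on GRCm38.p6 held sequences for 5 of the 6 genes, and Mir151 is named without a sequence. Each arm is written 5′ to 3′ with its seed in capitals.
miR-744-5p: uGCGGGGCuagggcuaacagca
miR-744-3p: cUGUUGCCacuaaccucaaccu
miR-149-5p: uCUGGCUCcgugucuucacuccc
miR-149-3p: gAGGGAGGgacgggggcggugc
miR-652-5p: cAACCCUAggagggggugccauuc
miR-652-3p: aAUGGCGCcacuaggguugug
miR-330-5p: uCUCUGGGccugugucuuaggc
miR-330-3p: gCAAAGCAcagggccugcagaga
miR-324-5p: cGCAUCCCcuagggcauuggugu
miR-324-3p: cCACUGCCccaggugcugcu

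The 10 arms carried 10 different seeds, so none of these 5 genes shared a seed with another of them. Of the 10 arms, 3 had the seed of another mouse microRNA in the RefSeq table of 1738 mature entries. The partner with a mean of at least 10 CPM, own-strand counts scaled to a library total of 1e6, was miR-326-3p, which has the seed of miR-330-5p and is shown for that reason.
miR-326-3p: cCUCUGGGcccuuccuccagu
Its gene Mir326 lies in an intron of the arrestin gene Arrb1 at chr7:99552269-99552363 on the plus strand, on the same chromosome as Mir330. Mir326 had 516 CPM in replicate 1 and 884 CPM in replicate 2, against 10071 and 14134 CPM for Mir330. Both genes were higher in replicate 2. The remaining partners, Mir7016, Mir1943 and a pair of Gm genes for miR-149-3p and Mir6240 for miR-330-3p, averaged between 0 and 6.55 CPM.

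The hairpins of Mir744 and Mir149 are printed because these genes had the highest level and the largest difference between libraries of the 6. The arms are in capitals, with the 5p arm first.
Mir744: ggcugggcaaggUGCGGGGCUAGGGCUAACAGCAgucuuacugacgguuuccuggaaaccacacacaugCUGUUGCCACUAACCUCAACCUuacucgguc
Mir149: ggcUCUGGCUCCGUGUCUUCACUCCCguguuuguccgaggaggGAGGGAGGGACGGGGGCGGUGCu
The arms of Mir744 are separated by 35 nt and those of Mir149 by 17 nt. The annotated hairpin of Mir149 is 66 nt long, with 68.2% G and C, and the miR-149-3p arm reaches 81.8%.

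All 6 genes overlapped a protein-coding gene on their own strand. Mir744 (ENSMUSG00000076460.1, chr11:65734733-65734832, minus strand, mm10) lies in an intron of Map2k4, which encodes a kinase that activates JNK. In the transcript Map2k4-201 this is intron 3, 15588 nt long, and the hairpin begins 359 nt after the upstream exon. Mir149 (ENSMUSG00000065470.1, chr1:92850378-92850443, plus strand) lies in intron 1 of Gpc1, a gene for a cell-surface heparan sulphate proteoglycan. That intron is 21249 nt long and the hairpin lies 18280 nt into it. Mir652 (ENSMUSG00000076011.1, chrX:142739000-142739097, plus strand) lies in an intron of Tmem164, a gene for a membrane protein. It is intron 2 of Tmem164-201, 69090 nt long, with 56050 nt before the hairpin. Mir151 (ENSMUSG00000065612.1, chr15:73254815-73254882, minus strand) lies 2151 nt into intron 22 of Ptk2-201, from the gene for focal adhesion kinase, and opposite to an intron of the antisense gene 1700085D07Rik.

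Mir330 and Mir324 also overlapped annotated exons. Mir330 (ENSMUSG00000065543.1, chr7:19181465-19181562, plus strand) lies in the 485 nt intron 1 of Eml2-201, from a gene for a microtubule-associated protein, with 241 nt before it and 146 nt after it. In the noncoding transcript Eml2-205 the same hairpin falls in exon 1. Mir324 (ENSMUSG00000065534.1, chr11:70012043-70012131, plus strand) lies in exon 16 of Dvl2-207, within the untranslated region of this gene for a Wnt signalling protein. On the opposite strand it lies in a 415 nt intron of Acadvl, which encodes a mitochondrial enzyme of fatty acid oxidation. Host messenger RNA was not measured, and the tables give no level for any host gene.

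**Figure D1:**
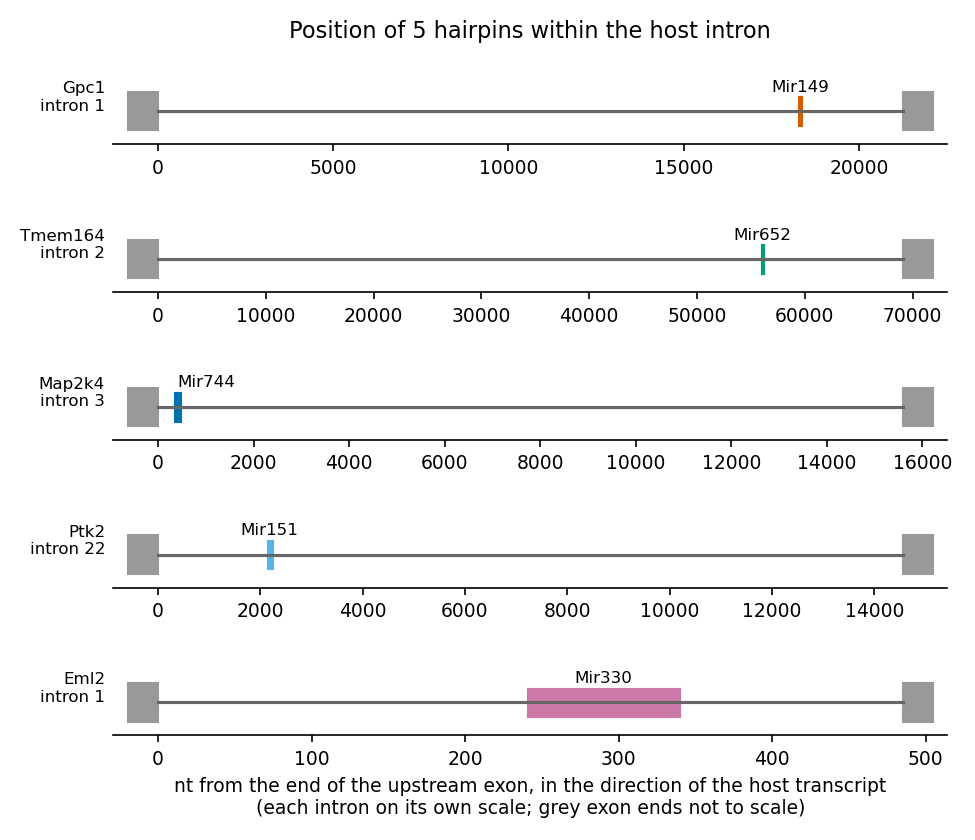
Position of 5 hairpins (coloured bars, drawn with a minimum width) in an intron of the host transcripts Gpc1-201, Tmem164-201, Map2k4-201, Ptk2-201 and Eml2-201. The horizontal axis is the distance in nt from the upstream exon, with each intron on its own scale. Mir744 begins 359 nt into its intron and Mir330 occupies a 485 nt intron, while Mir652 lies 56050 nt into its intron.

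No other counted microRNA gene lay within 10 kb of any of the 6. The nearest was Gm44349, 31229 nt from Mir324, and the farthest such neighbour was Gm26117, 1308939 nt from Mir151. None of the 6 hairpins had a run of 20 nt or more in common with another counted hairpin. This property belonged to the choice of the genes. The longest stretches were 12 nt for Mir330 and Mir324, 14 nt for Mir652, 15 nt for Mir744 and Mir149 and 17 nt for Mir151. The 10 printed arms were also searched in all 141767 GENCODE M21 transcripts. Each matched its own hairpin, those of Mir330 and Mir324 matched transcripts of Eml2 and Dvl2, and no arm matched a transcript of any further gene with up to 1 mismatch. Sequence outside annotated transcripts was not searched.

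Together the 6 genes supplied 265717 counts in replicate 1 and 357119 in replicate 2. These were 8.81% (exact binomial 95% interval 8.78 to 8.84) and 11.1% (11.09 to 11.16) of own-strand microRNA gene counts, a mean of 9.97% ± 1.64 (SD, n = 2). Without Mir149 the shares were 8.27% and 9.17%, a mean of 8.72% ± 0.636. Mir744 alone gave 46.7% of the counts of the 6 genes in replicate 1 and 41.7% in replicate 2. Intervals cover counting error within a library only. Amplified reads without molecular identifiers are not independent molecules, so the intervals can be too narrow even for that.

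Mir744 had 124022 counts in replicate 1 and 148856 in replicate 2. These correspond to 41107 CPM (exact Poisson 95% interval 40879 to 41336) and 46382 CPM (46147 to 46618), with a mean of 43744 ± 3730 CPM (SD, n = 2). It held rank 6 in replicate 1 and rank 4 in replicate 2 among all counted genes. Reads placed at several loci, 40.3% and 39.0% of reads in replicates 1 and 2, were left out of all gene counts. MicroRNAs with several copies can therefore be undercounted in the ranks and shares given here. In each library Mir744 was the highest of the 6 genes, and its lower value exceeded every value of the other 5.

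Mir652 had 38313 and 39304 counts in replicates 1 and 2, or 12699 CPM (12572 to 12827) and 12247 CPM (12126 to 12368). Its SD of 320 CPM was 2.56% of its mean of 12473 CPM, the smallest relative spread of the 6 genes on library totals. With TMM-scaled sizes, which allow for differences in composition between libraries, it was 13.7%, and Mir744 and Mir324 were the most even at 2.67% and 2.69%. Mir330 had 30384 and 45362 counts, or 10071 CPM (9958 to 10185) and 14134 CPM (14005 to 14265), and was higher in replicate 2. Its mean was 12102 ± 2873 CPM (SD, n = 2), a spread of 23.7% of the mean.

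Mir324 had 27933 and 33518 counts, or 9258 CPM (9150 to 9368) and 10444 CPM (10332 to 10556), with a mean of 9851 ± 838 CPM (SD, n = 2). Mir151 had 28955 and 27321 counts, or 9597 CPM (9487 to 9708) and 8513 CPM (8412 to 8614), with a mean of 9055 ± 767 CPM (SD, n = 2). The ranges of these genes overlapped, with Mir151 above Mir324 in replicate 1 and below it in replicate 2.

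Mir149 was the least even of the 6 genes. It had 16110 counts in replicate 1 and 62758 in replicate 2, which are 5340 CPM (5258 to 5423) and 19555 CPM (19402 to 19708). Its mean of 12447 ± 10052 CPM (SD, n = 2) described neither library, and the SD was 80.8% of the mean. It was the lowest of the 6 genes in replicate 1 and second to Mir744 in replicate 2, and its rank among all counted genes moved from 37 to 13.

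**Figure D2:**
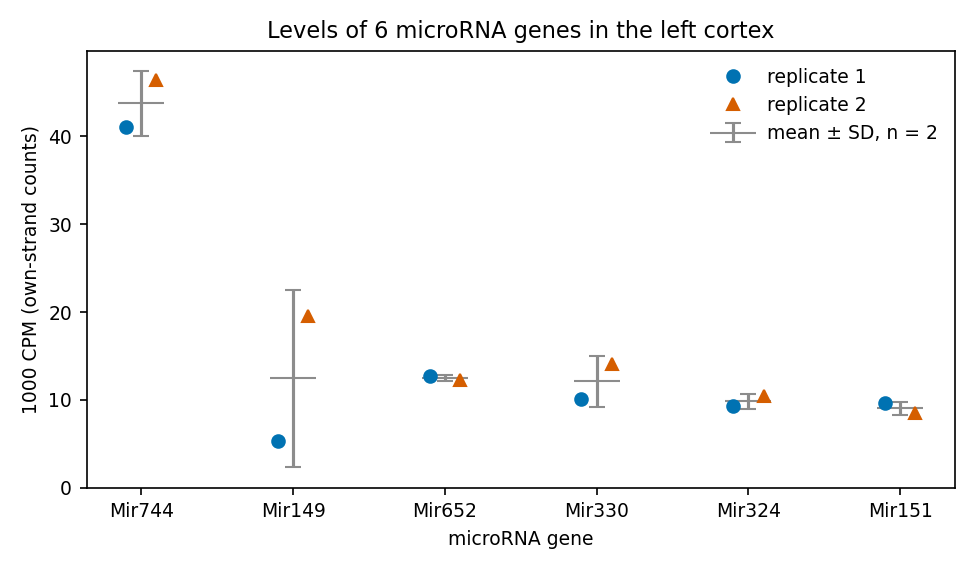
Level of each gene, in units of 1000 CPM, in replicate 1 (circles) and replicate 2 (triangles), with the mean ± SD (n = 2) in grey. Mir744 stands above the other 5 genes in both libraries, and Mir149 spans from 5340 to 19555 CPM.

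By mean level the order was Mir744, Mir652, Mir149, Mir330, Mir324 and Mir151. Mir744 and Mir652 were 31272 CPM apart with ranges that did not overlap. Each later pair of neighbours had overlapping ranges, with differences of 25.6 CPM between Mir652 and Mir149, 345 CPM between Mir149 and Mir330, 2251 CPM between Mir330 and Mir324 and 796 CPM between Mir324 and Mir151. Beyond neighbours, Mir652 exceeded Mir324 and Mir151, and Mir330 exceeded Mir151, without overlap of their values. In the ranking of all genes by mean CPM, the 6 genes held places 6, 16, 17, 18, 21 and 23.

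The genes nearest in level over both libraries were found by the Euclidean distance of log2(CPM + 1), a measure over 2 libraries only. Mir127 was closest to Mir744 (distance 0.20), followed by Mirlet7i (0.41). Mir382 and Mir128-1 were closest to Mir652 (0.22 and 0.26), and Mir99a and Mir128-1 to Mir330 (0.23 and 0.24). Mir99a and Mir541 were closest to Mir324 (0.26 and 0.35), and Mir23a and Mir541 to Mir151 (0.071 and 0.19). Mir149 had no gene as close, with Mir125a at 0.75 and Mir99a at 1.00.

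The libraries were then compared gene by gene with an exact binomial test given TMM-scaled library sizes, adjusted by the Benjamini-Hochberg method over all 496 genes tested. The test sets 1 library against 1 library and not conditions, and its p-values hold counting error alone. Adjusted p under 0.05 was a call. All 6 genes were called, 2 toward replicate 2 and 4 toward replicate 1. The same test called 56.5% of all genes tested, 25.8% toward replicate 2 and 30.6% toward replicate 1. Among the 99 genes whose mean reached 1000 CPM, 98 were called (99.0%), so a call sets none of the 6 apart at these depths. Sizes are therefore given as log2 ratios of replicate 2 over replicate 1.

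Mir149 was 3.13-fold higher in replicate 2, a log2 ratio of 1.64 with a 95% counting interval of 1.62 to 1.67. Its adjusted p was too small for the computation to tell from 0. The size of its ratio was the 5th among the 99 genes at 1000 CPM or more, where 10 genes were over 2-fold apart. The 4 larger ratios, named after their values were seen, belonged to Mir674, Mir497, Mir140 and Mir22, and each of these had a mean level below that of Mir149. The ratio of Mir149 lay between 1.64 and 1.87 over 6 alternatives of scaling, counting column and filter, of which the filters could not move it.

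The other 5 genes lay within 1.32-fold of equality. Mir151 was 1.32-fold higher in replicate 1 (log2 ratio -0.40, interval -0.43 to -0.38) and Mir652 was 1.21-fold higher in replicate 1 (-0.28, -0.30 to -0.26). Mir330 was 1.20-fold higher in replicate 2 (0.26, 0.24 to 0.28). Mir744 had a log2 ratio of -0.054 (-0.065 to -0.044) and Mir324 of -0.055 (-0.078 to -0.032), with adjusted p of 4.16e-22 and 7.49e-06 by the exact binomial test.

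The directions of Mir744 and Mir324 rested on the scaling. TMM shifted all log2 ratios by -0.23 relative to library totals, and with library totals both genes were higher in replicate 2, by 0.17 each. With the either-strand column their calls were lost, at adjusted p of 0.49 and 0.74 by the same test. Apart from 2 opposite-strand counts of Mir324 in replicate 1, their counts were the same in that column. The change came from its TMM sizes, which shifted log2 ratios by -0.18 relative to its totals. Library totals in place of TMM also turned the balance of all calls. It went from 128 toward replicate 2 and 152 toward replicate 1 to 180 and 102. Mir149 and Mir330 stayed higher in replicate 2, and Mir151 and Mir652 higher in replicate 1, under all 6 alternatives. Alternatives that changed only the count minimum could not move a ratio. The sizes of these ratios did rest on the scaling. With library totals they were 1.87 for Mir149, 0.49 for Mir330, -0.17 for Mir151 and -0.052 for Mir652. On TMM-scaled sizes the median absolute log2 ratio was 0.27 for the 6 genes, 0.42 for the genes at 1000 CPM or more and 0.53 for all genes tested. These medians hold for that scaling only. The genes tested reach down to 10 counts in total, where counting error is larger.

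**Figure D3:**
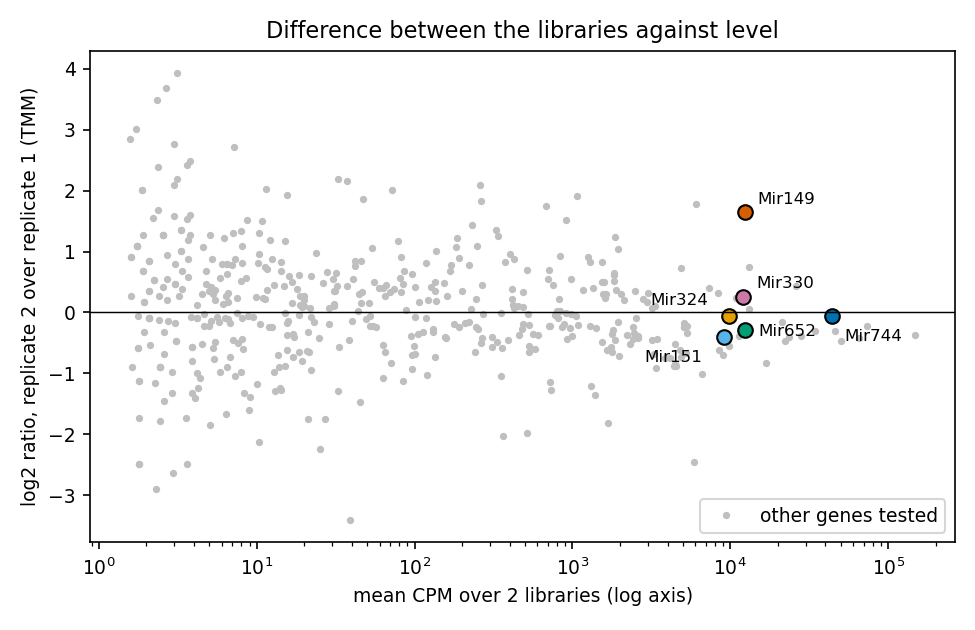
Log2 ratio of replicate 2 over replicate 1 after TMM scaling against mean CPM (log axis) for the genes tested; genes with 0 counts in either library are not drawn. Mir149 stands at 1.64, while the other 5 genes lie between -0.40 and 0.26.

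Ratios between genes of the same library need no scaling. For every 100 counts of Mir744, Mir324 had 22.5 counts in replicate 1 and 22.5 in replicate 2. The log2 change of this ratio was -0.00036, with an interval of -0.026 to 0.025. Mir149 had 13.0 counts per 100 of Mir744 in replicate 1 and 42.2 in replicate 2, a log2 change of 1.70 (1.67 to 1.73). Against each of the other 4 genes its share was 2.61-fold to 4.13-fold larger in replicate 2, with the largest change relative to Mir151.

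Among the remaining genes, Mir330 moved from 24.5 to 30.5 counts per 100 of Mir744, Mir652 from 30.9 to 26.4 and Mir151 from 23.3 to 18.4. Mir151 and Mir330 were nearly equal in replicate 1, at 95.3 counts of Mir151 per 100 of Mir330, and stood at 60.2 in replicate 2. Every pair other than Mir324 with Mir744 had an interval that left out 0. These intervals hold counting error alone and do not include differences between library preparations.

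**Figure D4:**
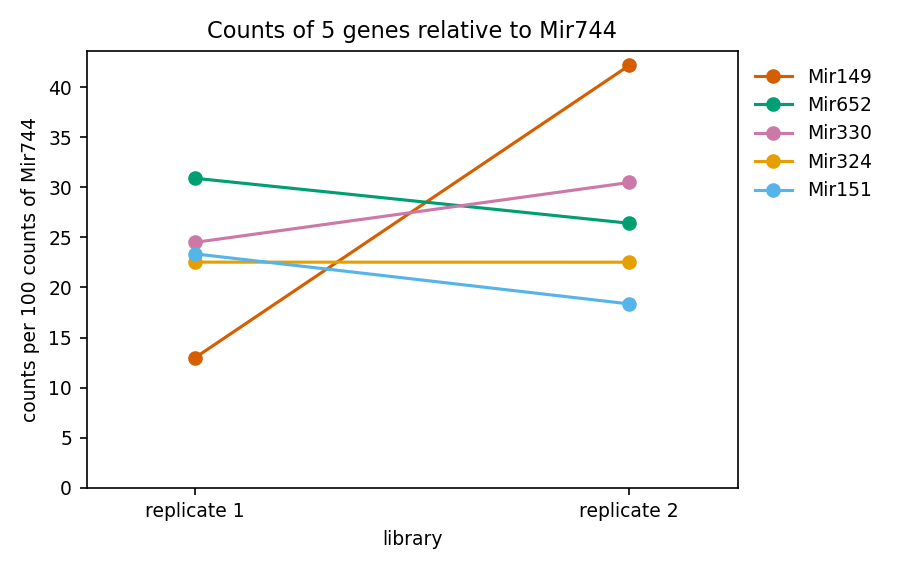
Counts of 5 genes per 100 counts of Mir744 in the same library, for replicate 1 and replicate 2. Mir149 goes from 13.0 to 42.2, Mir324 stays at 22.5, and the other 3 genes change by at most 1.27-fold; lines join values of the same gene.

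Mir151 belongs to a microRNA family with Mir28 and Mir708, genes known to share closely related arms. Mir151 was the highest of the 5 counted family genes, at 9055 CPM, followed by Mir708, in an intron of Tenm4, at 1652 ± 311 CPM (SD, n = 2) and Mir28a, in an intron of Lpp, at 531 ± 4.29 CPM. Mir708 had 5648 and 4596 counts and Mir28a 1593 and 1714 counts in replicates 1 and 2. With TMM scaling all 3 were called higher in replicate 1, as 30.6% of all genes tested were. Their log2 ratios were -0.40 for Mir151, -0.62 for Mir708 and -0.21 for Mir28a. Of the 99 genes at 1000 CPM or more, which include Mir151 and Mir708, 98 were called and only 35 were higher in replicate 2. A higher value in replicate 1 was thus the more common direction at that level with this scaling. With library totals Mir28a turned to 0.016 and lost its call (adjusted p of 0.83, exact binomial test), while Mir151 and Mir708 stayed lower in replicate 2 at -0.17 and -0.39. Mir28c had 1 and 0 counts, and Mir28b had 0 in both libraries, which allows up to 0.994 CPM in replicate 1 and 0.935 CPM in replicate 2 at a floor of 3 counts. Mir28a and Mir28c were the counted hairpins that shared at least 16 nt with Mir151, and reads placed at several loci were left out of all gene counts.

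Mir744, Mir149, Mir652 and Mir151 belonged to a class of 425 microRNA genes that lie wholly in introns of a protein-coding gene of the same orientation and have no run of 20 nt in common with another hairpin. Mir330 and Mir324 were outside it because of their exon overlaps. Within the class, 119 genes (28.0%) reached 10 counts in each library, with a median of 51.2 CPM, and 20 genes reached 1000 CPM. By mean level Mir744, Mir652, Mir149 and Mir151 held places 3 to 6 of the class, after Mir139 and Mirlet7g and before Mir99b at 9001 CPM. The class held 35.9% and 35.0% of counts in replicates 1 and 2, of which these 4 genes gave 6.87% and 8.67% of all counts. Of the 170 genes of the class that were tested, 76 (44.7%) were called, against 56.5% of all genes tested. All 4 of these genes were among them. At 1000 CPM or more, where the 4 lie, 98 of 99 genes were called, so the call does not set them apart.

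Reads of the 6 genes lay almost wholly on the annotated strand. Mir324 had 2 counts on the opposite strand in replicate 1, beside 27933 on its own, and the other 5 genes had 0 in both libraries. None of the 99 genes at 1000 CPM or more had 10 opposite-strand counts in either library. Over all genes, up to 198617 of 198711 opposite-strand counts in replicate 1 and 215418 of 215514 in replicate 2 could be own-strand reads of a microRNA gene annotated across from the counted gene, as Gm25927 is across from Mirlet7e. No microRNA gene is annotated across from any of the 6.

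The tissue label was checked against marker microRNAs. The 11 neuron markers summed to 219726 CPM in replicate 1 and 207804 CPM in replicate 2, of which Mir139 alone gave 155820 and 141898 CPM. The 3 Mir124a genes, from a defining neuronal microRNA with several copies, had between 0 and 9 counts per library, and the other 8 markers reached 10 counts in each. Oligodendrocyte markers summed to 3662 and 5626 CPM and astrocyte markers to 29590 and 25386 CPM. Endothelial and mural markers summed to 12012 and 12565 CPM, and microglia and immune markers to 2774 and 2345 CPM. Most of the immune sum came from Mir150 (1967 and 1562 CPM) and Mir146 (714 and 717 CPM). Within the endothelial and mural sum, Mir126a went from 5714 to 8835 CPM, Mir143 from 5506 to 3493 CPM and Mir145a from 792 to 237 CPM. Ciliated cell and choroid markers summed to 488 and 340 CPM. Markers of red blood cells, liver and striated muscle each summed to between 32.5 and 75.4 CPM. The muscle genes Mir1a-1, Mir1a-2, Mir133a-1 and Mir133a-2 were at 0 in both libraries, so the muscle sum came from Mir206 and Mir208b. Mir1a and Mir133a have more than 1 gene each, and reads placed at several loci were left out. Their 0 counts therefore cannot show that muscle was absent. Oligodendrocyte markers summed higher in replicate 2, as Mir149 was. So did the markers of red blood cells (51.0 and 75.4 CPM in replicates 1 and 2), liver (46.7 and 51.1) and striated muscle (32.5 and 37.4), and the endothelial and mural markers. The neuron, astrocyte, immune and ciliated or choroid sums were lower in replicate 2. The part of any cell type in the difference of Mir149 was not tested. In this bulk tissue, fewer cells of a type and less RNA per cell cannot be told apart.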

How the data were processed

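The deposited tables hold raw counts per microRNA gene on mm10 with GENCODE M21, per the file headers and the library notes, 1 table per library. No aligner or counter is named: not given in the sources used here. Columns carry no names. The role of each column (either strand, own strand, opposite strand) was read from the layout, and the own-strand column was used. The 4 rows for unmapped, multiply placed, unassigned and ambiguous reads stayed out of library sizes. They made up 64.5% and 65.5% of reads in replicates 1 and 2, including 40.3% and 39.0% placed at several loci.

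CPM used the own-strand total. TMM sizes came from edgeR 4.0.16 and alternative size factors from DESeq2 1.42.0 in R 4.3.3. Genes with at least 10 counts in total were tested. Hairpins came from GENCODE M21 transcripts, folds from RNAfold 2.7.2, sequences from RefSeq on GRCm38.p6. Other software was Python 3.11.15, scipy 1.17.1 and statsmodels 0.14.6.

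The genes, lists and tests were chosen with earlier results of these data known. Genes named beside the 6 followed a rule: neighbours within 10 kb, the miR-28 family, shared seeds at 10 CPM or more, and the 2 genes nearest in level to each. Alternatives covered scaling, strand column, count minimum, denominator, stretch length and leaving out each replicate.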

Additional observations from a re-analysis of the deposited data

How the results depend on the processing

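The log2 ratios of the 6 genes kept their direction and call in 30 of 36 recomputations. Those that changed only the count minimum reused the same library sizes, so they could not move a ratio. Mir744 and Mir324 turned toward replicate 2 with library totals (0.17 each) and with totals without the highest gene (0.15 each). They lost their calls with the either-strand column (-0.0049 and -0.0054), through its TMM sizes and not through their own counts. The count of called genes lay between 234 and 282 over 6 alternatives, against 280 of 496 tested. The number tested changed with the filter, so the share called did too. With at least 100 counts in total 234 of 291 genes were called, and with no filter 273 of 742. The share of calls that were higher in replicate 2 moved from 45.7% to 63.8% with library totals and 62.0% without the highest gene, the latter chosen after seeing the data. The summed share of the 6 genes was 3.49% with all reads as the denominator, by construction of the larger total, and 8.81% to 11.1% when leaving out each replicate. Mean levels moved by more than the SD in 5 of 30 recomputations. With totals without the highest gene, these were Mir744 at 51373, Mir652 at 14657, Mir324 at 11569 and Mir151 at 10645 CPM, and with either-strand counts Mir652 at 13360 CPM. Mir149 ranged from 5340 to 19555 CPM when leaving out each replicate. With 2 replicates, leaving out 1 always moves a mean by less than its SD, so no such recomputation could be among the 5. With stretches of 16 nt in place of 20, 1 of the 6 hairpins (Mir151) shared a stretch with another gene, and with 18 nt none did. Opposite-strand counts of the 6 genes were 0 and 2 when leaving out each replicate. The search of arms in the genome was not run, and transcripts were searched instead, a choice made after seeing the data. No replicate could be left out of the comparison between libraries, which has 1 library on each side. No paired analysis was possible because there is a single group.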

Other observations

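The annotated hairpins of the 6 genes ranged from 66 nt for Mir149 to 100 nt for Mir744, against a median of 83 nt for the 395 genes with at least 10 counts in both libraries. Their G and C content lay between 50.0% for Mir652 and 68.2% for Mir149, against a median of 52.2%. The content of Mir149 exceeded that of 94.9% of those genes. The predicted folding energy per nt was -0.61 kcal/mol for Mir151 and -0.56 for Mir149, against a median of -0.43, and -0.41 for Mir324 was the weakest of the 6. Annotated hairpins differ in how much flanking sequence they include, which enters these energies. In the predicted folds, between 73.9% (miR-324-5p) and 95.2% (miR-652-3p) of the bases of an arm were paired.

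Since Mir149 combined a high G and C content with a large ratio between the libraries, other abundant genes were looked at in the same way. Of the 99 genes whose mean reached 1000 CPM, 8 had at least 65% G and C, and 5 of the 8 were higher in replicate 2, or 4 of 7 without Mir149, which prompted the look. After the TMM scaling used here, 35 of all 99 genes (35.4%) were higher in replicate 2. That scaling shifted all log2 ratios by -0.23 relative to library totals, so this background count rests on it. The log2 ratios of the 8 ran from -0.70 for Mir99b to 1.64 for Mir149, and Mir770, the richest at 70.2%, had -0.40. Spearman's rho between content and log2 ratio over the 99 genes was 0.13, and 0.10 without the 6 genes. This is a correlation across genes that share both libraries, given as a description.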
